A study of Homo sapiens with 6 samples.

Results

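The genes described here are 36 genes whose exons are known to be spliced differently in epithelial and mesenchymal cells. Their members in these data were chosen by position and read number. A skipped exon was a member when it lay on the strand of a listed gene in GENCODE 29 and had at least 20 informative reads in the siCtrl pool and in at least 1 knockdown pool. Informative reads are those that fit only the transcript with the exon or only the one without it. This gave 143 exons in 33 genes, out of 40658 skipped exons in the whole series, of which 17934 met the same read minimum. EPB41L5, KIF1B and FGFR2 had no member exon. All RNA came from MDA-LM2, a human breast cancer line selected from MDA-MB-231 for its spread to the lung, 48 h after Lipofectamine transfection. The groups were siSNRPA1 (3 libraries), siSNRPB (1 library) and the siCtrl control transfection (2 libraries). The authors deposited 1 table per group, so each group is 1 pool of reads with no replicate, and a test between pools compares those reads and not the conditions. By qPCR the submitters gave knockdowns of 86%, 83% and 75% for the 3 siRNAs to SNRPA1 and 86% for SNRPB, without tying an siRNA to a library.

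Epithelial cells and mesenchymal cells make different proteins from the same genes by including or skipping short cassette exons. In epithelial cells the RNA-binding proteins ESRP1 and ESRP2 hold many of these exons in their epithelial form, and QKI, RBFOX2 and MBNL proteins act on many of them in mesenchymal cells. The exons lie mostly in genes for adhesion, junctions, the actin skeleton and vesicle traffic, and they usually keep the reading frame. SNRPA1 is the A′ protein of the U2 snRNP, which recognises the branch point at the 3′ end of introns, and SNRPB is a core Sm protein of the spliceosomal snRNPs.

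The targeted genes were low in their own pools. SNRPA1 had 28.9 RPM, its informative reads scaled to the pool's total, in the siSNRPA1 pool, 404 in the siSNRPB pool and 166.5 in the siCtrl pool. SNRPB had 54.9 RPM in the siSNRPB pool, 747 in the siSNRPA1 pool and 555 in the siCtrl pool. The pools held 7155107 informative reads in siSNRPA1, 3116325 in siSNRPB and 5201371 in siCtrl, and a member exon had a median of 106, 57 and 84 of them. Of 14 mesenchymal marker genes 9 had skipped-exon events, with a summed 1355, 1414 and 1219 RPM in siSNRPA1, siSNRPB and siCtrl. Of 15 epithelial markers 8 had events, with sums of 992.9, 1074 and 1009 RPM that were nearly all KRT8. ESRP1 was at 0 in both knockdown pools and had 4 reads in siCtrl, and CDH1 had 8, 0 and 3 reads. The other epithelial markers with events were low but not absent. In siSNRPA1, siSNRPB and siCtrl, ESRP2 had 44, 21 and 42 reads, CLDN7 35, 15 and 35, and RAB25 40, 5 and 26. GRHL2 had 12, 0 and 8 reads and MARVELD2 0, 2 and 5. The 5 markers of immune and endothelial cells summed to 5.45 RPM in siSNRPA1, 0 in siSNRPB and 8.65 in siCtrl. Single mesenchymal markers moved more than their sum, and in both directions. In siSNRPA1, siSNRPB and siCtrl, ZEB2 had 51.7, 56.5 and 29.2 RPM, AXL 30.2, 26.3 and 53.5, and TGFBI 165.5, 266.3 and 203. The part of these marker differences in the exon results was not tested.

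The sequences of 13 exons that the results turn on are shown first, because their lengths and frames are what a switch adds to or takes from the protein. Capitals mark the skipped exon and lower-case letters mark the last 15 bases of the exon before it and the first 15 bases of the exon after it. They were read 5′ to 3′ from GENCODE 29 transcripts, and positions are on hg38.
The first pair moved the same way in both knockdown pools towards inclusion, and the APLP2 exon moved towards skipping in both.
MAP3K7, 81-nt exon, chr6:90544552-90544632, minus strand: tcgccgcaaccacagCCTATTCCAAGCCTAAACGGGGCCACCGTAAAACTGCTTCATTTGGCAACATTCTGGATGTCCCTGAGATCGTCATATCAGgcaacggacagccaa
CTTN, 111-nt exon, chr11:70421470-70421580, plus strand: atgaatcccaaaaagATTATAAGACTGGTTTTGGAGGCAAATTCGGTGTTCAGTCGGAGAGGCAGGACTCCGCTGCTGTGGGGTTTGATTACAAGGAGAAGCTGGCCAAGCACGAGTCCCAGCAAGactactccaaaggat
APLP2, 36-nt exon, chr11:130137256-130137291, plus strand: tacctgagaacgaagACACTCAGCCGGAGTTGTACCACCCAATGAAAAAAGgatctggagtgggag
The next exons passed in the siSNRPA1 pool.
CLSTN1, 57-nt exon, chr1:9737498-9737554, minus strand: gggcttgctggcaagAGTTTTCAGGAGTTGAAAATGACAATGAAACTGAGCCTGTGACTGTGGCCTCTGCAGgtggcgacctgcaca
RALGPS2, 78-nt exon, chr1:178892230-178892307, plus strand: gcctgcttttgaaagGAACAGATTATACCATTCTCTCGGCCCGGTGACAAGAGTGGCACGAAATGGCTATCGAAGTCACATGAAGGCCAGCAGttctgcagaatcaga
PICALM, 24-nt exon, chr11:85978070-85978093, minus strand: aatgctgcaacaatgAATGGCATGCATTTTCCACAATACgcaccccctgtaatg
KIF13A, 39-nt exon, chr6:17789872-17789910, minus strand: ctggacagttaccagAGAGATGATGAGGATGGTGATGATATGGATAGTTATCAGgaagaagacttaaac
NFYA, 87-nt exon, chr6:41080811-41080897, plus strand: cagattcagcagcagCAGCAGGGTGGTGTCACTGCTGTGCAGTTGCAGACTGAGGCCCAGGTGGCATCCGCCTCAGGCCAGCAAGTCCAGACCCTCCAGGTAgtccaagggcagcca
TCF7L2, 144-nt exon, chr10:113089397-113089540, plus strand: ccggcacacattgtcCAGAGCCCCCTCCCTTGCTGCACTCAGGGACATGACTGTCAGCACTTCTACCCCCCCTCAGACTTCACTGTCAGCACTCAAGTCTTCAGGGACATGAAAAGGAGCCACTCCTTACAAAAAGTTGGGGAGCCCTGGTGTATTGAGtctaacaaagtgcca
The last exons passed in the siSNRPB pool or between the knockdown pools.
ARHGEF11, 120-nt exon, chr1:156971697-156971816, minus strand: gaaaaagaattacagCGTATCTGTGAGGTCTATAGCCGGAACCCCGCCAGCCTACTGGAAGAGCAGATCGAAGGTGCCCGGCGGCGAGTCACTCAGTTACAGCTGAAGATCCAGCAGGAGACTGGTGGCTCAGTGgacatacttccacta
PPFIBP1, 123-nt exon, chr12:27687385-27687507, plus strand: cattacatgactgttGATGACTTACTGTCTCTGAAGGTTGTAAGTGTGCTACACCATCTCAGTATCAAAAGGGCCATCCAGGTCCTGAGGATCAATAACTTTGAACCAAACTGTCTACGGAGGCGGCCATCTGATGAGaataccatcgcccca
ENAH, 57-nt exon, chr1:225535507-225535563, minus strand: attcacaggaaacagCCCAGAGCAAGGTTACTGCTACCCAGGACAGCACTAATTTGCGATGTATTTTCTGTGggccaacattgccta
NUMB, 144-nt exon, chr14:73279281-73279424, minus strand: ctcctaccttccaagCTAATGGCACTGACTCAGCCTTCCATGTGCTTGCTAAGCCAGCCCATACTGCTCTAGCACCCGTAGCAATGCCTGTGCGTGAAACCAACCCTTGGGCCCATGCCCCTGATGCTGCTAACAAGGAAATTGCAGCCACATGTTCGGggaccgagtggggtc
Each of these 13 exons has a length that is a multiple of 3, so that skipping it leaves the reading frame of the exons around it in register. Among all 23 exons that passed in at least 1 comparison, 19 (82.6%) had such a length, and the 76-nt PICALM, 130-nt ITGA6, 232-nt ARFGAP2 and 116-nt NF2 exons did not. A second form of the TCF7L2 exon starts 3 nt further downstream and lacks the opening CAG.

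Among all 143 members, 101 exons (70.6%) had a length that is a multiple of 3, against 41.7% of all exons at the same read minimum. In 114 of the members (79.7%) the whole exon was coding, against 59.4% of all exons. Their median length was 114 nt, against 123 nt. The upstream introns of the members had a median of 3115 nt, against 2170 nt, and the downstream introns 2193 nt, against 2019 nt. Median GC content was 48.3% in the members and 49.4% in all exons. The members' median inclusion level was 0.38 in siSNRPA1, 0.26 in siSNRPB and 0.36 in siCtrl, against 0.78, 0.72 and 0.83 for all exons.

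The inclusion level is the authors' MISO estimate of the share of transcripts that hold the exon, running between 0 and 1, and is given with their interval. Informative reads were split into those that hold the exon (inclusion reads) and those that skip it (exclusion reads). Testing required 20 or more informative reads in both pools of a comparison, and 5 or more of each kind over the pair. It passed at an adjusted p under 0.05, by a two-sided Fisher's exact test with Benjamini-Hochberg adjustment over every tested exon of the series, together with a change in level of 0.1 or more on the same side as the reads. Level and reads are different measures: a longer exon collects more inclusion reads, and MISO also uses reads that fit both forms. The percentage of inclusion reads lay at least 0.5 above the level, as a fraction, in 22 members in siSNRPA1, 12 in siSNRPB and 17 in siCtrl.

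In the siSNRPA1 pool the member exons that passed moved in both directions, more of them towards inclusion than towards skipping. Of 70 tested member exons 13 passed in 10 genes (18.6%), against 17.0% of the 6459 tested exons of the series. Higher inclusion was found for 8 exons, in MAP3K7, CLSTN1, ITGA6, RALGPS2, PICALM, KIF13A, CTTN and NFYA (11.4% of the tested members, against 4.18% of all tested exons). Lower inclusion was found for 5 exons, in APLP2, TCF7L2 and PICALM (7.14%, against 12.8%). The median difference was -0.005 over the tested members and -0.02 over all tested exons. In the siSNRPB pool 10 of 60 tested members passed in 9 genes (16.7%), against 21.3% of 4244 exons. There 8 exons were lower (13.3%, against 16.7% of all tested exons), in APLP2, ITGA6, PPFIBP1, NF2, ARHGEF11, ARFGAP2 and TCF7L2, and 2 were higher, in MAP3K7 and CTTN (3.33%, against 4.62%). The median difference was -0.01 in both the members and all tested exons. Both comparisons use the same siCtrl reads, so they are not independent of each other.

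**Figure D1:**
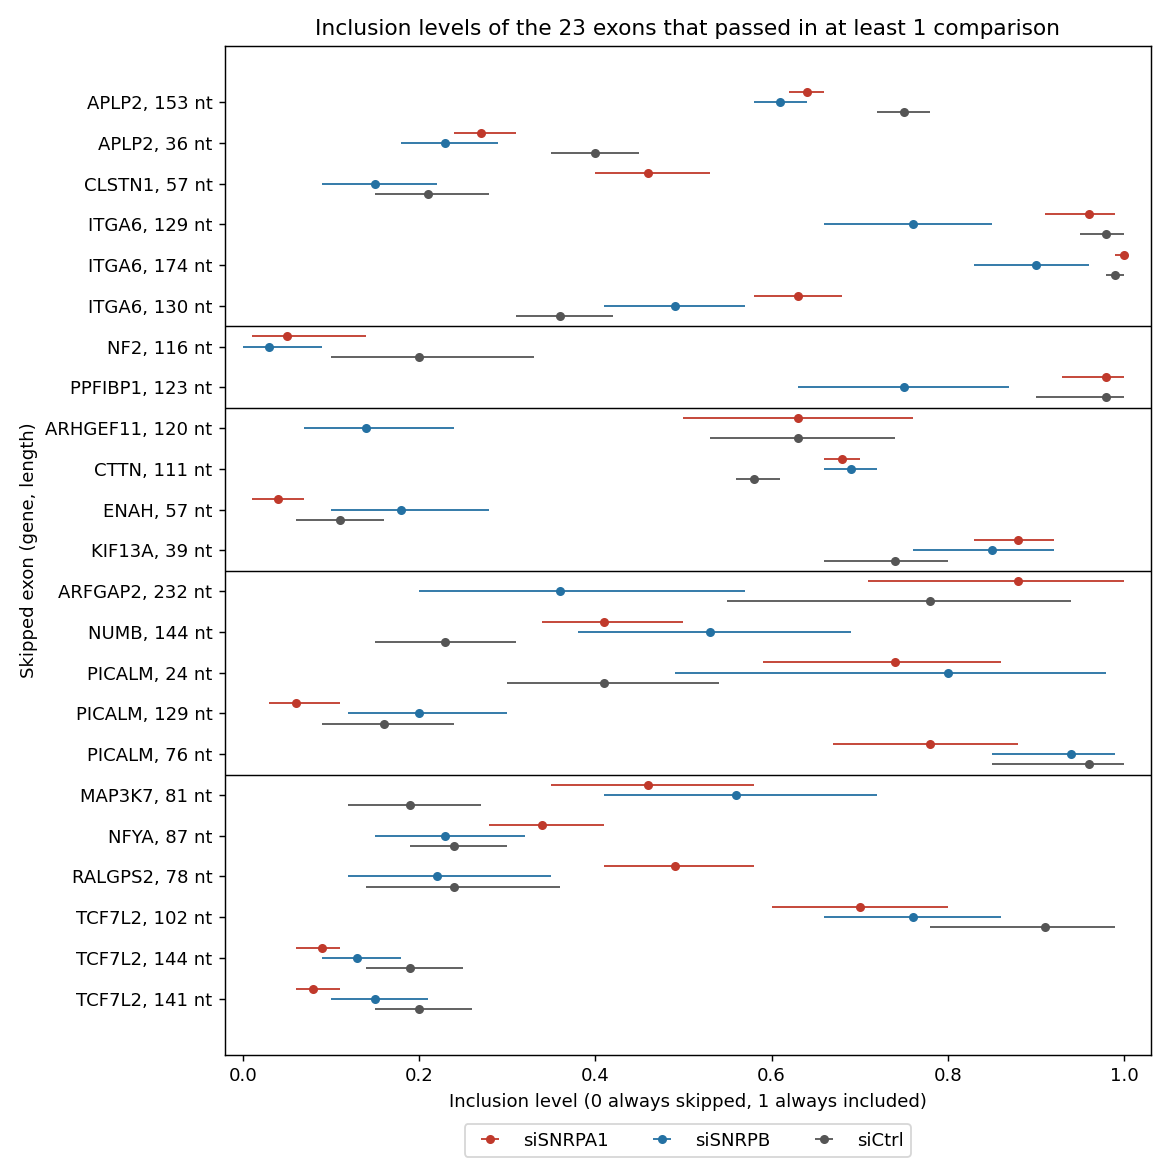
Inclusion level (x axis, a fraction between 0 and 1) of the 23 member exons that passed in at least 1 comparison, ordered by role of the gene, with 1 point for each pool and bars for the authors' interval. MAP3K7 lies right of siCtrl in both knockdown pools (0.46 and 0.56, against 0.19), CLSTN1 only in siSNRPA1 (0.46, against 0.21), and ARHGEF11 lies far left only in siSNRPB (0.14, against 0.63).

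**Figure D2:**
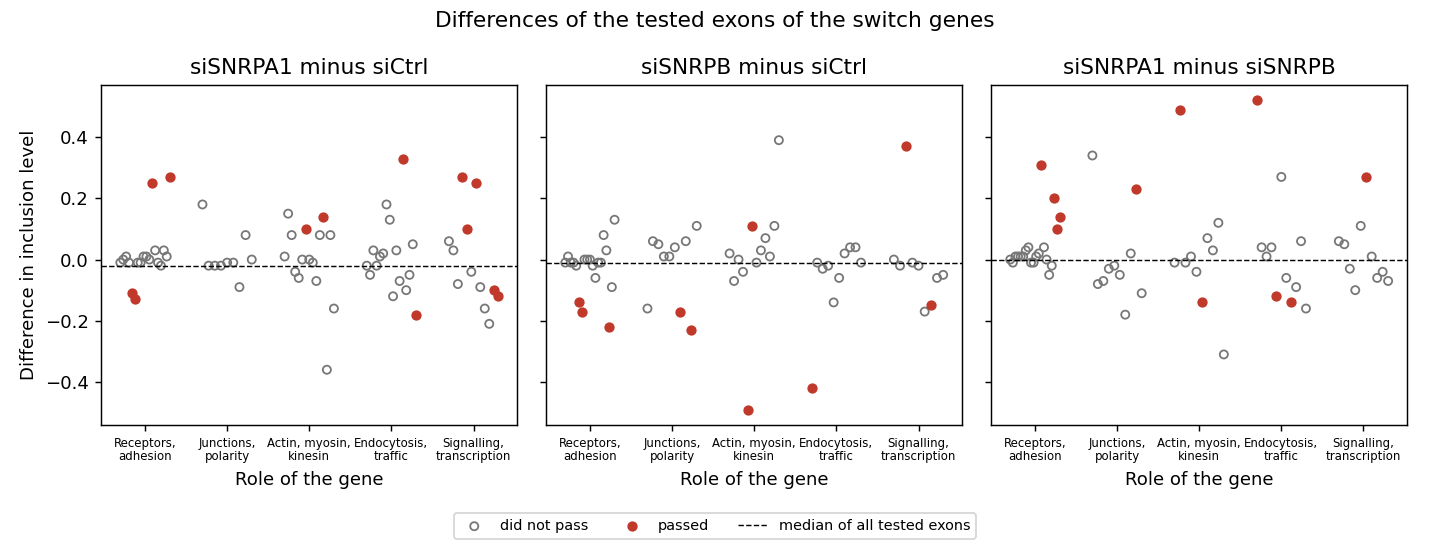
Difference in inclusion level (y axis) of each tested member exon by role of its gene, 1 panel for each comparison, with filled points for exons that passed and a dashed line at the median of all tested exons. In siSNRPA1 minus siCtrl 8 filled points lie above 0 and 5 below, and in siSNRPB minus siCtrl 2 lie above and 8 below.

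Among receptors and adhesion genes, 6 of 7 listed genes had 39 member exons. In siSNRPA1 18 were tested, with 2 lower and 2 higher (22.2%, against 17.0% of all tested exons). In siSNRPB 19 were tested, with 3 lower (15.8%, against 16.7% of all tested exons that were lower).

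APLP2 encodes a transmembrane relative of the amyloid precursor protein. Its 36-nt exon had a level of 0.27 (0.24 to 0.31) in siSNRPA1, 0.23 (0.18 to 0.29) in siSNRPB and 0.40 (0.35 to 0.45) in siCtrl. The reads were 222 inclusion and 192 exclusion reads in siSNRPA1, 56 and 62 in siSNRPB, and 192 and 100 in siCtrl. Both knockdown pools were lower than siCtrl with intervals apart from it, by 0.13 in siSNRPA1 (adjusted p 0.00848, Fisher's exact test) and by 0.17 in siSNRPB (adjusted p 0.0041). The 153-nt exon just upstream had levels of 0.64 (0.62 to 0.66), 0.61 (0.58 to 0.64) and 0.75 (0.72 to 0.78) in siSNRPA1, siSNRPB and siCtrl. It was among the most deeply read members, with 4386 inclusion and 365 exclusion reads in siSNRPA1, 1500 and 132 in siSNRPB, and 2917 and 115 in siCtrl. It was lower in siSNRPA1 by 0.11 (adjusted p 1.02e-10, Fisher's exact test) and in siSNRPB by 0.14 (adjusted p 4.75e-08), although the percentage of inclusion reads moved less, at 92.3%, 91.9% and 96.2%, and with these in place of levels it passed in neither knockdown. The 168-nt exon, which has the length of the exon for the Kunitz protease inhibitor domain, did not pass, with levels of 0.19, 0.18 and 0.20. The difference between siSNRPA1 and siSNRPB did not pass for the 36-nt exon (adjusted p 0.399, Fisher's exact test) or for the 153-nt exon (adjusted p 0.728).

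CLSTN1 encodes calsyntenin-1, a membrane protein that links cargo vesicles to kinesin. Its 57-nt exon had a level of 0.46 (0.40 to 0.53) in siSNRPA1, 0.15 (0.09 to 0.22) in siSNRPB and 0.21 (0.15 to 0.28) in siCtrl. It was read 134 times as included and 68 times as skipped in siSNRPA1, 18 and 50 times in siSNRPB, and 36 and 70 times in siCtrl. The siSNRPA1 interval lay above both others. The exon was higher in siSNRPA1 than in siCtrl by 0.25 (adjusted p 2.6e-06, Fisher's exact test) and higher than in siSNRPB by 0.31 (adjusted p 9.13e-07), while siSNRPB minus siCtrl was -0.06 (adjusted p 0.446). A 30-nt exon of the same gene was rarely included, at 0.06, 0.02 and 0.03, and did not pass.

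ITGA6 encodes the α6 subunit of laminin-binding integrins. Its 130-nt exon near the 3′ end has the length of the exon that gives the A form of the cytoplasmic tail, and skipping it gives the B form. Its level was 0.63 (0.58 to 0.68) in siSNRPA1, 0.49 (0.41 to 0.57) in siSNRPB and 0.36 (0.31 to 0.42) in siCtrl. Inclusion and exclusion reads numbered 426 and 39 in siSNRPA1, 123 and 30 in siSNRPB, and 159 and 31 in siCtrl, or 91.6%, 80.4% and 83.7% inclusion. It passed as higher in siSNRPA1 against siCtrl (difference 0.27, adjusted p 0.0208, Fisher's exact test) and against siSNRPB (0.14, adjusted p 0.0027). In siSNRPB the level and the reads went opposite ways, and the reads did not differ detectably (adjusted p 0.604, Fisher's exact test). Upstream, a 129-nt form of an exon not in the annotation had levels of 0.96, 0.76 and 0.98 in siSNRPA1, siSNRPB and siCtrl. It was lower in siSNRPB than in siCtrl (adjusted p 0.00297, Fisher's exact test), a call that rests on 6 exclusion reads against 195 inclusion reads, where siSNRPA1 and siCtrl had no exclusion read among 632 and 499. The annotated 174-nt form shares those 6 reads and had levels of 1.00, 0.90 and 0.99. All 3 of these ITGA6 exons overlap a gene on the other strand, AC078883.1, and whether counting used strand is not known here. A 117-nt exon was nearly always skipped, at 0.02, 0.04 and 0.01, with adjusted p of 0.0123 in siSNRPA1 and 0.000697 in siSNRPB (Fisher's exact test) below the minimum difference.

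CD44, the hyaluronan receptor, is the best known gene of this kind, since its variable exons lengthen the extracellular stem and are dropped in mesenchymal cells. None of its 14 member exons passed in any of the 3 comparisons, but most of them were not tested. In siSNRPA1 against siCtrl only the 126-nt, 99-nt, 114-nt, 90-nt and 204-nt exons were tested. The same exons without the 114-nt one were tested in siSNRPB against siCtrl and between the knockdown pools. The 126-nt variable exon had levels of 0.03 in siSNRPA1, 0.04 in siSNRPB and 0.04 in siCtrl, with 84 inclusion and 313 exclusion reads in siSNRPA1, 66 and 237 in siSNRPB, and 96 and 353 in siCtrl. The 90-nt exon was read as included 12, 1 and 6 times against the same exclusion reads, with levels of 0.01, 0.00 and 0.00. The 204-nt exon, the last before the constant 3′ exons of this set, stayed at 0.05, 0.03 and 0.05. Its percentage of inclusion reads differed, at 44.5% in siSNRPA1, 25.0% in siSNRPB and 31.9% in siCtrl (adjusted p 0.000296 for siSNRPA1 against siCtrl and 5.24e-07 for siSNRPA1 against siSNRPB, Fisher's exact test), without the difference in level. The 114-nt exon also differed in reads, with 39 inclusion and 7 exclusion reads in siSNRPA1 against 16 and 21 in siCtrl (adjusted p 0.00131, Fisher's exact test), at levels of 0.02 and 0.01. Annotated exons of 120 nt and 117 nt, 2 forms with 1 end in common, were at 0.83 in siSNRPA1, 0.31 and 0.33 in siSNRPB, and 0.86 and 0.85 in siCtrl. A 129-nt exon ending at 35206243 was at 0.70, 0.22 and 0.59. These 3 had only inclusion reads, and just 4, 4 and 2 of them in siSNRPB, so they were not tested. Their levels are measured between other variable exons, so they cover only transcripts that already hold those rarely included exons. The 132-nt form of the exon ending at 35206243, measured from the constant exon upstream, was at 0.02, 0.01 and 0.02. Several of these exons share 1 set of exclusion reads, those that join the constant exons across all variable ones, so they are not separate counts. A 63-nt exon had levels of 0.48 (0.44 to 0.51), 0.72 (0.65 to 0.80) and 0.75 (0.69 to 0.81), but it had only 2 exclusion reads in siSNRPA1, 1 in siSNRPB and 0 in siCtrl beside 703, 478 and 687 inclusion reads and was not tested. For the 63-nt exon in siSNRPA1 the authors' deposited table gave a Bayes factor of 1e+12. A 102-nt variable exon was at 0.02 in siSNRPA1, 0.01 in siSNRPB and 0.05 in siCtrl. It had only inclusion reads, 47, 8 and 62 of them, and was not tested. Its Bayes factor in siSNRPB in the authors' deposited table was 3.32e+11. The 204-nt and 63-nt exons overlap the antisense gene CD44-AS1. The deepest CD44 exon, of 79 nt, was at 1.00 in all 3 pools, with 4246, 1994 and 2839 inclusion reads.

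**Figure D3:**
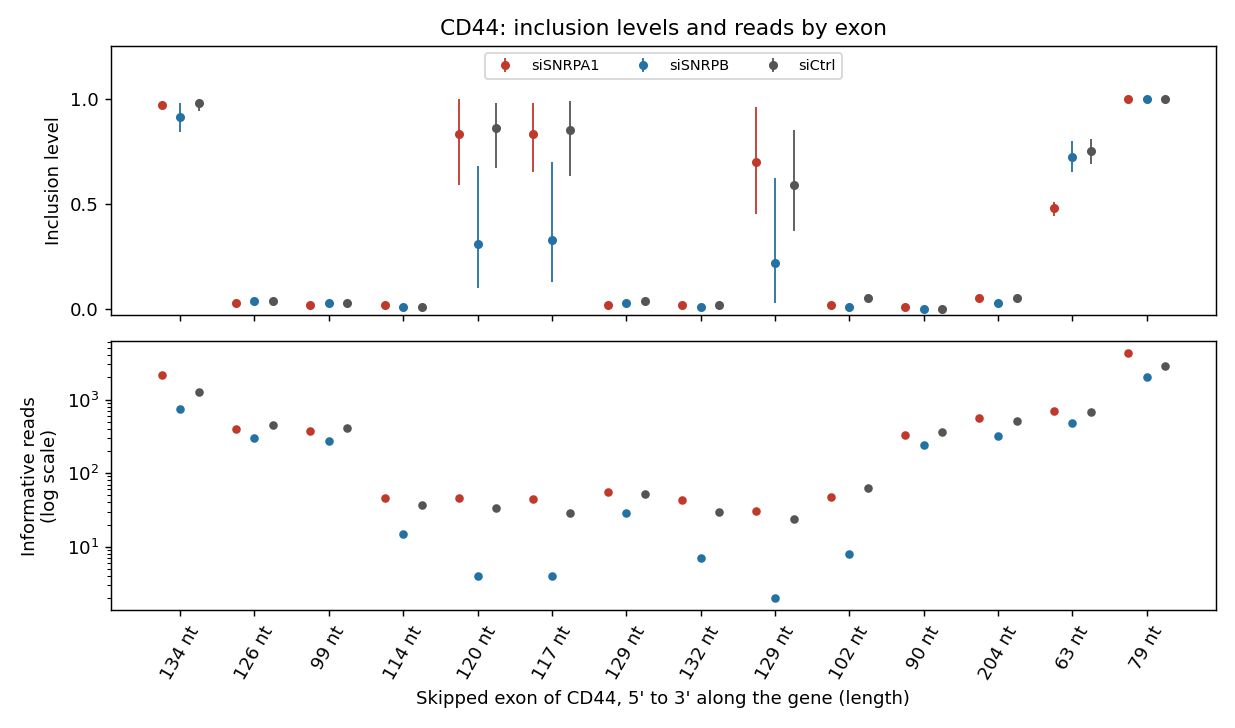
CD44 exons in order along the gene (x axis, by length): inclusion level with the authors' interval (upper panel) and informative reads on a log scale (lower panel), 1 point for each pool. Most variable exons lie at 0.00 to 0.05 in all 3 pools, but those of 120 nt, 117 nt and 129 nt (ending at 35206243) lie at 0.22 to 0.86. The 63-nt exon, which follows the variable exons, lies at 0.48 in siSNRPA1, 0.72 in siSNRPB and 0.75 in siCtrl.

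The remaining receptors were FAT1, an atypical cadherin, and the fibroblast growth factor receptor FGFR1. The 36-nt exon of FAT1 was almost always skipped, at 0.00, 0.04 and 0.01 in siSNRPA1, siSNRPB and siCtrl, with 0, 4 and 0 inclusion reads beside 131, 56 and 94 exclusion reads. For FGFR1 the deepest exon, of 179 nt, was at 0.99 in all 3 pools. Its 267-nt exon, which has the length of the exon for the outermost immunoglobulin loop, was at 0.21 (0.18 to 0.24), 0.26 (0.21 to 0.32) and 0.18 (0.14 to 0.23), and did not pass in siSNRPA1 (adjusted p 0.052, Fisher's exact test) or siSNRPB (adjusted p 0.597). FGFR2, the textbook case of this switch, had 7, 4 and 7 informative reads in all and could not be measured.

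Among junction and polarity genes, 5 of 6 listed genes had 20 member exons. Of 9 tested in siSNRPA1 0 passed, against 17.0% of all tested exons. Of 10 tested in siSNRPB 2 were lower, in PPFIBP1 and NF2, a share near the 16.7% of all tested exons.

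PPFIBP1 encodes liprin-β1, a scaffold at the cell cortex. Its 123-nt exon had a level of 0.98 (0.93 to 1.00) in siSNRPA1, 0.75 (0.63 to 0.87) in siSNRPB and 0.98 (0.90 to 1.00) in siCtrl. The siSNRPB pool held 8 exclusion reads beside 108 inclusion reads, and siSNRPA1 and siCtrl held none beside 244 and 164. The exon was lower in siSNRPB than in siCtrl by 0.23 (adjusted p 0.00393, Fisher's exact test) and higher in siSNRPA1 than in siSNRPB by the same amount (adjusted p 0.00111). A 33-nt exon ending at 27677096 was at 0.22, 0.20 and 0.14 and passed in neither knockdown. NF2 encodes merlin, a tumour suppressor that links membrane proteins to actin. A 116-nt exon of NF2 that is not in the annotation had levels of 0.05 (0.01 to 0.14), 0.03 (0.00 to 0.09) and 0.20 (0.10 to 0.33) in siSNRPA1, siSNRPB and siCtrl. In siSNRPB 0 of 20 informative reads held it, which allows a share of up to 15%, against 10 of 28 in siCtrl (adjusted p 0.0108, Fisher's exact test). siSNRPA1 had 2 of 11, too few to test.

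CTNND1 encodes p120-catenin, which keeps cadherins at the surface and starts translation further downstream when 5′ exons are skipped. Its 289-nt exon, which holds part of the coding sequence, was at 0.15 (0.13 to 0.19) in siSNRPA1, 0.23 (0.19 to 0.29) in siSNRPB and 0.17 (0.14 to 0.20) in siCtrl. The reads were 115 inclusion and 36 exclusion in siSNRPA1, 102 and 30 in siSNRPB, and 113 and 78 in siCtrl. Inclusion reads made up 76.2%, 77.3% and 59.2%, more in both knockdown pools than in siCtrl (adjusted p 0.00717 and 0.00399, Fisher's exact test), but the level was lower in siSNRPA1 than in siCtrl and only 0.06 above it in siSNRPB, so it did not pass. The deepest CTNND1 exon, of 63 nt, was at 0.95, 0.97 and 0.96, and the 72-nt exon at 0.93, 0.96 and 0.95. An 87-nt exon was mostly skipped, at 0.04, 0.09 and 0.05. TJP1 encodes the tight junction scaffold ZO-1, and its 240-nt exon has the length of the exon for the α domain. That exon was at 0.15 (0.12 to 0.17), 0.26 (0.22 to 0.31) and 0.15 (0.12 to 0.18), with 79.9%, 83.9% and 81.3% inclusion reads that did not differ detectably (adjusted p 0.962 in siSNRPA1 and 0.745 in siSNRPB, Fisher's exact test). In siSNRPB its interval lay above that of siCtrl, and the authors' deposited table gave a Bayes factor of 21378. SCRIB, a polarity scaffold, had a 63-nt exon at 0.49 (0.36 to 0.65), 0.81 (0.52 to 0.98) and 0.79 (0.60 to 0.93), with no exclusion read in any pool, so that it could not be tested.

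Of the actin, myosin and kinesin genes, 6 of 7 had 23 member exons. In siSNRPA1 15 were tested and 2 were higher, in CTTN and KIF13A (13.3% passed, against 17.0% of all tested exons). In siSNRPB 12 were tested, of which the CTTN exon was higher and an ARHGEF11 exon was lower (16.7% passed, against 21.3%).

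CTTN encodes cortactin, which binds and branches actin filaments, and its 111-nt exon encodes an actin-binding repeat. The exon was at 0.68 (0.66 to 0.70) in siSNRPA1, 0.69 (0.66 to 0.72) in siSNRPB and 0.58 (0.56 to 0.61) in siCtrl. These levels rest on 2333 inclusion and 497 exclusion reads in siSNRPA1, 1111 and 233 in siSNRPB, and 1220 and 400 in siCtrl. Both knockdown pools were higher than siCtrl, with no overlap of intervals, by 0.10 (adjusted p 6.37e-07, Fisher's exact test) and by 0.11 (adjusted p 1.89e-05). Inclusion reads made up 82.4%, 82.7% and 75.3%, and with these in place of levels the exon passed in neither knockdown. KIF13A is a kinesin of endosomes and other vesicles. Its 39-nt exon was at 0.88 (0.83 to 0.92), 0.85 (0.76 to 0.92) and 0.74 (0.66 to 0.80) in siSNRPA1, siSNRPB and siCtrl. It was higher in siSNRPA1 by 0.14, with 197 inclusion and 20 exclusion reads against 116 and 30 (adjusted p 0.0144, Fisher's exact test), and did not pass in siSNRPB, with 92 and 12 reads (adjusted p 0.16). The 147-nt exon of KIF13A had levels of 0.34 (0.26 to 0.44), 0.22 (0.13 to 0.34) and 0.70 (0.51 to 0.88), and the reads of siSNRPA1, 60 inclusion and 11 exclusion against 65 and 2, did not pass (adjusted p 0.0532, Fisher's exact test). In siSNRPB it had 20 inclusion and 0 exclusion reads and was not tested. Its percentage of inclusion reads there, 100% against 97.0% in siCtrl, went the other way from the level. The authors' deposited table gave Bayes factors of 33.8 in siSNRPA1 and 940418 in siSNRPB.

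ARHGEF11 encodes a guanine nucleotide exchange factor for small GTPases. Its 120-nt exon had a level of 0.63 (0.50 to 0.76) in siSNRPA1, 0.14 (0.07 to 0.24) in siSNRPB and 0.63 (0.53 to 0.74) in siCtrl. Inclusion and exclusion reads were 71 and 13 in siSNRPA1, 11 and 13 in siSNRPB, and 115 and 19 in siCtrl. It was lower in siSNRPB than in siCtrl by 0.49 (adjusted p 0.000452, Fisher's exact test) and higher in siSNRPA1 than in siSNRPB by 0.49 (adjusted p 0.00238), while the levels of siSNRPA1 and siCtrl were equal (adjusted p 0.929). The gene's informative reads were also fewer, at 15.5 RPM in siSNRPA1, 9.63 in siSNRPB and 32.9 in siCtrl, and the 24 reads behind the siSNRPB value leave its inclusion share between 27.9% and 64.9% (95% Wilson interval).

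ENAH encodes Mena, which lengthens actin filaments at the leading edge. The 63-nt ENAH exon, which has the length of the exon that marks epithelial cells, was almost always skipped, at 0.01 (0.00 to 0.03) in siSNRPA1, 0.05 (0.02 to 0.09) in siSNRPB and 0.02 (0.01 to 0.04) in siCtrl. It was read as included 3, 7 and 5 times and as skipped 178, 78 and 128 times, and passed in no comparison. A 57-nt exon of ENAH was at 0.04 (0.01 to 0.07), 0.18 (0.10 to 0.28) and 0.11 (0.06 to 0.16). It did not pass against siCtrl (adjusted p 0.115 in siSNRPA1 and 0.165 in siSNRPB, Fisher's exact test), but was lower in siSNRPA1 than in siSNRPB, with 6 inclusion and 80 exclusion reads against 12 and 24 (adjusted p 0.00364, Fisher's exact test). MYO18A, an unconventional myosin, had its deepest exon, of 140 nt, at 0.99 in all 3 pools. Its 1274-nt exon was at 0.34 (0.30 to 0.39), 0.65 (0.55 to 0.76) and 0.26 (0.22 to 0.31), where the reads, at 91.6%, 95.3% and 89.2% inclusion, did not pass (adjusted p 0.622 and 0.0862, Fisher's exact test). For this exon in siSNRPB the authors' deposited table gave a Bayes factor of 1e+12. ABI1, a subunit of the WAVE complex, had its deepest exon, of 177 nt and ending at 26777241, at 0.98, 0.96 and 0.98. The 87-nt exon of ABI1 was at 0.56, 0.57 and 0.55 with intervals that all overlapped.

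**Figure D4:**
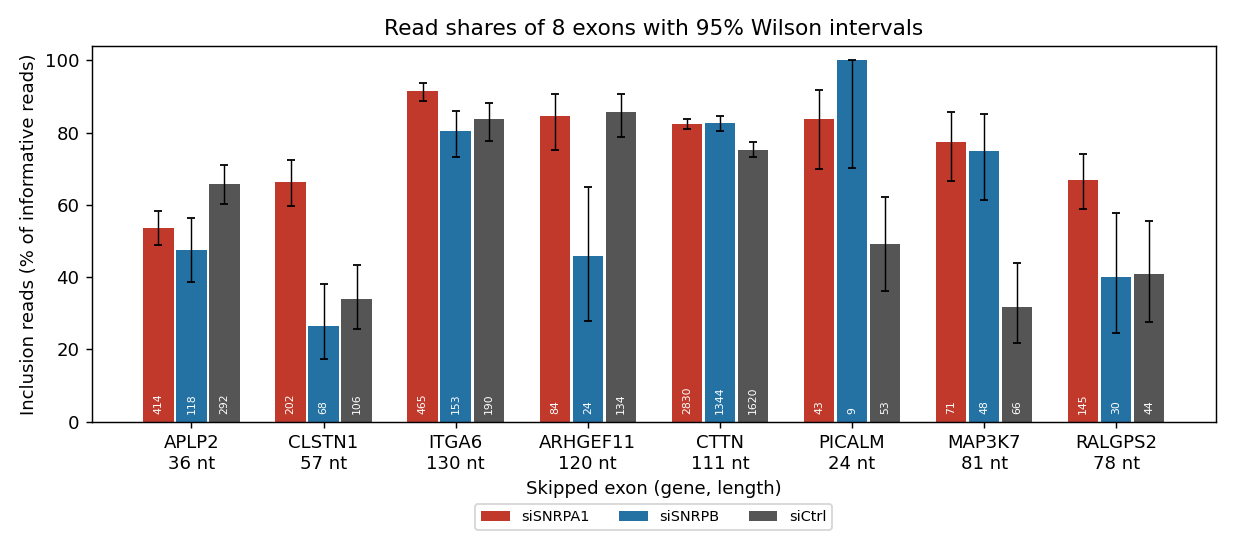
Percentage of informative reads that hold the exon (y axis) for 8 exons, with 95% Wilson intervals that cover counting error only and the number of informative reads written in each bar. MAP3K7 stands at 77.5% in siSNRPA1 and 75.0% in siSNRPB against 31.8% in siCtrl, and CLSTN1 at 66.3% in siSNRPA1 against 26.5% in siSNRPB and 34.0% in siCtrl.

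Genes of endocytosis and vesicle traffic had the most members, 46 exons in all 8 listed genes. In siSNRPA1 16 were tested with 1 lower and 1 higher, both in PICALM (12.5%, against 17.0% of all tested exons). In siSNRPB 10 were tested with 1 lower, in ARFGAP2, where 21.3% of all tested exons passed.

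PICALM encodes a clathrin assembly protein. Its 24-nt exon was at 0.74 (0.59 to 0.86) in siSNRPA1, 0.80 (0.49 to 0.98) in siSNRPB and 0.41 (0.30 to 0.54) in siCtrl. It was higher in siSNRPA1 than in siCtrl by 0.33, with 36 inclusion and 7 exclusion reads against 26 and 27 (adjusted p 0.00381, Fisher's exact test), and siSNRPB had 9 inclusion reads in all and was not tested. The call was lost with reads thinned to the smallest pool (adjusted p 0.0983, Fisher's exact test). A 76-nt exon, whose length is not a multiple of 3, was at 0.78 (0.67 to 0.88), 0.94 (0.85 to 0.99) and 0.96 (0.85 to 1.00). It was lower in siSNRPA1 than in siCtrl, with 144 inclusion and 6 exclusion reads against 153 and 0 (adjusted p 0.0453, Fisher's exact test), while the authors' deposited table gave a Bayes factor of 2.57. The 129-nt PICALM exon was at 0.06 (0.03 to 0.11), 0.20 (0.12 to 0.30) and 0.16 (0.09 to 0.24), and was lower in siSNRPA1 than in siSNRPB, with 8 inclusion and 47 exclusion reads against 20 and 19 (adjusted p 0.00192, Fisher's exact test). A 105-nt exon of PICALM was at 0.99, 0.98 and 0.96.

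NUMB encodes an adaptor that sorts receptors and restrains Notch, and its 144-nt exon lengthens the proline-rich region. Its level was 0.41 (0.34 to 0.50) in siSNRPA1, 0.53 (0.38 to 0.69) in siSNRPB and 0.23 (0.15 to 0.31) in siCtrl. Inclusion and exclusion reads numbered 92 and 14 in siSNRPA1, 52 and 0 in siSNRPB, and 28 and 0 in siCtrl. The level was thus highest in the knockdown pools while the only exclusion reads were in siSNRPA1, and the siSNRPA1 comparison with siCtrl did not pass (adjusted p 0.0996, Fisher's exact test). siSNRPA1 was lower than siSNRPB by 0.12 (adjusted p 0.0238, Fisher's exact test), with intervals that overlapped. The deepest NUMB exon, of 294 nt, had only inclusion reads, at levels of 0.38, 0.23 and 0.40.

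ARFGAP2 encodes an Arf GTPase activator of COPI vesicles. A 232-nt exon of ARFGAP2 was at 0.88 (0.71 to 1.00) in siSNRPA1, 0.36 (0.20 to 0.57) in siSNRPB and 0.78 (0.55 to 0.94) in siCtrl. Its reads were 43 inclusion and 0 exclusion in siSNRPA1, 18 and 6 in siSNRPB, and 44 and 1 in siCtrl. It was lower in siSNRPB than in siCtrl by 0.42 (adjusted p 0.0203, Fisher's exact test) and higher in siSNRPA1 than in siSNRPB by 0.52 (adjusted p 0.00847), on 24 reads in the siSNRPB pool. The 232-nt form is annotated in a transcript marked for nonsense-mediated decay. The 132-nt form of this exon, which is coding and shares the exclusion reads, was at 0.92, 0.40 and 0.88. It had 13 inclusion and 6 exclusion reads in siSNRPB, too few to test.

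In the other traffic genes nothing passed, but most of their exons were not tested. No DNM2 exon was tested in any comparison. DNM1L exons were tested only in siSNRPA1 against siCtrl, those of 78 nt and 33 nt. DNM2, a dynamin that cuts vesicles off, had a 30-nt exon that was read only as skipped, in 0 of 450, 0 of 295 and 0 of 305 informative reads, which allows inclusion shares of up to 0.667%, 1.02% and 0.984% in siSNRPA1, siSNRPB and siCtrl. DNM1L, the dynamin of mitochondrial fission, had its deepest exon, of 121 nt, at 0.99 in all 3 pools. The 163-nt exon of DNM1L was at 0.89 (0.78 to 0.98), 0.44 (0.34 to 0.56) and 0.77 (0.63 to 0.91), with no exclusion read in any pool, and was not tested. For this exon in siSNRPB the authors' deposited table gave a Bayes factor of 152. EXOC7, a subunit of the exocyst, had its deepest exon, of 185 nt, at 1.00, 0.99 and 1.00. Its 93-nt exon was rare, at 0.05, 0.01 and 0.03, although its reads, 20 inclusion and 35 exclusion in siSNRPA1, 0 and 39 in siSNRPB, and 12 and 65 in siCtrl, differed (adjusted p 0.0289, 0.0253 and 9.34e-05 for siSNRPA1 and siSNRPB against siCtrl and for siSNRPA1 against siSNRPB, Fisher's exact test). EXOC1, another exocyst subunit, had a 134-nt exon at 0.05, 0.01 and 0.02. OSBPL3, a lipid transfer protein, had its deepest exon, of 127 nt, at 0.78 (0.69 to 0.87), 0.60 (0.51 to 0.70) and 0.50 (0.43 to 0.58), with no exclusion read. That exon was not tested, and its Bayes factor in siSNRPA1 in the authors' deposited table was 9.21e+07. The 93-nt exon of OSBPL3 was at 0.27, 0.33 and 0.39 and did not pass in siSNRPA1 (adjusted p 0.112, Fisher's exact test) or siSNRPB (adjusted p 0.756).

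Signalling and transcription genes had 15 member exons in all 8 listed genes. In siSNRPA1 12 were tested, with 3 higher, in MAP3K7, RALGPS2 and NFYA, and 2 lower, both forms of 1 TCF7L2 exon (41.7% passed, against 17.0% of all tested exons). In siSNRPB 9 were tested, with 1 higher, in MAP3K7, and 1 lower, in TCF7L2 (22.2%, against 21.3%).

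MAP3K7 encodes TAK1, a kinase that passes on signals of TGF-β and inflammatory cytokines. Its 81-nt exon had a level of 0.46 (0.35 to 0.58) in siSNRPA1, 0.56 (0.41 to 0.72) in siSNRPB and 0.19 (0.12 to 0.27) in siCtrl. It was read 55 times as included and 16 times as skipped in siSNRPA1, 36 and 12 times in siSNRPB, and 21 and 45 times in siCtrl. Both knockdown pools were higher than siCtrl, by 0.27 (adjusted p 2.39e-06, Fisher's exact test) and by 0.37 (adjusted p 0.000106), and no difference between them passed (adjusted p 0.909). A second MAP3K7 exon, of 116 nt, was at 0.91 (0.86 to 0.94), 0.94 (0.88 to 0.99) and 0.99 (0.97 to 1.00), with 18, 2 and 0 exclusion reads. In siSNRPA1 its reads differed (adjusted p 0.00113, Fisher's exact test), but the difference of -0.08 was under the minimum.

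RALGPS2 encodes an exchange factor for Ral GTPases. Its 78-nt exon was at 0.49 (0.41 to 0.58) in siSNRPA1, 0.22 (0.12 to 0.35) in siSNRPB and 0.24 (0.14 to 0.36) in siCtrl. The siSNRPA1 interval lay above both others, with 97 inclusion and 48 exclusion reads against 12 and 18 in siSNRPB and 18 and 26 in siCtrl. It was higher in siSNRPA1 than in siCtrl by 0.25 (adjusted p 0.0133, Fisher's exact test) and than in siSNRPB by 0.27 (adjusted p 0.031). Neither call held with reads thinned to the smallest pool (adjusted p 0.0623 and 0.123, Fisher's exact test). The 105-nt exon of RALGPS2 was at 0.56 (0.46 to 0.66), 0.80 (0.63 to 0.94) and 0.90 (0.75 to 0.99), with only inclusion reads, and was not tested.

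NFYA encodes a subunit of the CCAAT-binding factor NF-Y, and its 87-nt exon makes the long form of the protein. The exon was at 0.34 (0.28 to 0.41), 0.23 (0.15 to 0.32) and 0.24 (0.19 to 0.30) in siSNRPA1, siSNRPB and siCtrl. It passed as higher in siSNRPA1 by 0.10, with 93 inclusion and 46 exclusion reads against 56 and 55 (adjusted p 0.0346, Fisher's exact test), although the intervals overlapped and OARD1 lies on the other strand there. For this exon the authors' deposited table gave a Bayes factor of 1.13, where values above 1 favour a difference. TCF7L2 encodes a transcription factor of the Wnt pathway. Its 144-nt exon was at 0.09 (0.06 to 0.11), 0.13 (0.09 to 0.18) and 0.19 (0.14 to 0.25), and its 141-nt form at 0.08, 0.15 and 0.20. The 144-nt form was lower in siSNRPA1 than in siCtrl, with 39 inclusion and 58 exclusion reads against 46 and 25 (adjusted p 0.0102, Fisher's exact test), and the 141-nt form shares the exclusion reads (adjusted p 0.00633). The 102-nt exon of TCF7L2 was at 0.70 (0.60 to 0.80), 0.76 (0.66 to 0.86) and 0.91 (0.78 to 0.99). It was lower in siSNRPB than in siCtrl by 0.15, with 124 inclusion and 8 exclusion reads against 124 and 0 (adjusted p 0.0236, Fisher's exact test), with a Bayes factor of 0.97 in the authors' deposited table. In siSNRPA1 it was 0.21 under siCtrl and did not pass, with 180 and 5 reads (adjusted p 0.171, Fisher's exact test).

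In the last genes of this group no exon passed. The SLK exon was not tested in any comparison, and those of SPAG9 and PLEKHA1 were not tested in siSNRPB. SLK, a kinase of adhesion turnover, had a 93-nt exon at 0.00, 0.02 and 0.01 with 0, 2 and 3 inclusion reads in siSNRPA1, siSNRPB and siCtrl. SPAG9, a scaffold of JNK signalling, had a 42-nt exon at 0.12 (0.06 to 0.18), 0.25 (0.13 to 0.41) and 0.21 (0.14 to 0.29). LRRFIP2 had a 72-nt exon at 0.92 (0.87 to 0.97), 0.86 (0.76 to 0.94) and 0.86 (0.80 to 0.91), and the phosphoinositide-binding protein PLEKHA1 had a 145-nt exon at 0.68 (0.57 to 0.79), 0.81 (0.59 to 0.97) and 0.72 (0.53 to 0.89).

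Set against each other, the knockdown pools differed at 11 of 61 tested members in 9 genes (18.0%), against 14.7% of 5082 tested exons. Higher inclusion in siSNRPA1 than in siSNRPB was found for 8 of them (13.1%, against 8.28% of all tested exons), and lower inclusion for 3, in ENAH, NUMB and PICALM (4.92%, against 6.38%). The largest differences, siSNRPA1 minus siSNRPB, were 0.52 in ARFGAP2, 0.49 in ARHGEF11, 0.31 in CLSTN1, 0.27 in RALGPS2 and 0.23 in PPFIBP1. In CLSTN1 and RALGPS2 the siSNRPA1 pool stood apart from siCtrl, and in ARFGAP2, ARHGEF11 and PPFIBP1 the siSNRPB pool did. The ITGA6 exons of 129 nt, 130 nt and 174 nt were higher in siSNRPA1 by 0.20 (adjusted p 0.00184, Fisher's exact test), 0.14 (adjusted p 0.0027) and 0.10 (adjusted p 0.00124). Those of 129 nt and 174 nt are 2 forms of 1 exon and share the same exclusion reads. With 1 exon per overlapping group, 9 of 55 tested members passed, 7 of them higher in siSNRPA1. That was 16.4%, against 14.6% of all tested exons.

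The authors' Bayes factors and the read test parted ways for some members. A Bayes factor of at least 10 for siSNRPA1 against siCtrl was given by the authors' deposited table to 20 members, of which 11 passed here, 4 were tested and did not pass and 5 were not tested. In siSNRPB the authors' deposited table gave 22 such members, of which 9 passed, 4 did not pass and 9 were not tested. Of the passing exons 2 in siSNRPA1 and 1 in siSNRPB had a Bayes factor under 10 in the authors' deposited table.

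Many members could not be tested, for want of reads of 1 kind. In siSNRPA1 against siCtrl 53 of 143 had too few exclusion reads, 19 too few inclusion reads and 1 too few reads in all. In siSNRPB against siCtrl 36 had too few exclusion reads, 15 too few inclusion reads and 32 too few in all.

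Genes for the regulators of such exons had events of their own. Among 36 listed regulators 51 exons were tested in siSNRPA1, with 3 lower and 2 higher (9.80%, against 17.0% of all tested exons). In siSNRPB 44 were tested, with 6 lower and 2 higher (18.2%, against 21.3%). Neither share was above that of exons in general. RBFOX2, which promotes mesenchymal splicing, had a 40-nt exon at 0.78 in siSNRPA1, 0.63 in siSNRPB and 0.93 in siCtrl that was lower in both knockdown pools. An 83-nt exon of CELF2 was also lower in both, at 0.64, 0.59 and 0.89. MBNL1 had a 36-nt exon at 0.58 in siSNRPA1, against 0.91 in siCtrl. In siSNRPB a 152-nt CELF1 exon was lower, at 0.24 against 0.50 in siCtrl, and a 50-nt HNRNPH1 exon at 0.48 against 0.69. A 90-nt TRA2A exon, at 0.02 against 0.15, and a 72-nt HNRNPK exon, at 0.55 against 0.65, were also lower in siSNRPB. The RBFOX2 call in siSNRPA1 rests on 157 inclusion and 30 exclusion reads against 55 and 2 (adjusted p 0.0423, Fisher's exact test). Other regulator exons were higher. In siSNRPA1 a 70-nt RBM5 exon was at 0.18 against 0.02 in siCtrl, and a 79-nt TRA2A exon at 0.25 against 0.13. In siSNRPB a 156-nt HNRNPA1 exon was at 0.46 against 0.27 in siCtrl, and a 231-nt RBM10 exon at 0.66 against 0.48. Among 25 further genes with exons known to change in this transition, 51 exons were tested in siSNRPA1, with 6 lower and 2 higher (15.7%, against 17.0% of all tested exons), and 41 in siSNRPB, with 5 lower and 7 higher (29.3%, against 21.3%).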

How the data were processed

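RNA of 6 MDA-LM2 libraries was sequenced as stranded total RNA, and the submitters' processing notes name STAR 2.7 and hg38. Not given in the sources used here are the MISO version and how libraries of a group were combined. Per the file headers, the inclusion level is a fraction, a posterior mean with interval bounds whose width is not stated. The authors deposited reads by class (inclusion only, exclusion only, both, neither), which are the counts used here. The 2 deposited comparison tables give a difference score and a Bayes factor, a ratio of evidence.

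Genes came from GENCODE 29. With several events for 1 skipped exon, the event with the most informative reads was kept. Fisher's exact tests (scipy 1.17.1, Python 3.11.15) with Benjamini-Hochberg adjustment ran over all tested exons, at the minima given above. They were also tried on simulated counts in which level and read share were equal. Those counts leave out the gap between level and reads seen here. Intervals and tests cover counting error only, since each group is 1 pool with no replicate. Reads without molecular identifiers are not independent molecules, so even that error may be understated. Overlapping forms and neighbouring exons can share exclusion reads. The series design names 2 siRNAs to SNRPB, where 1 library is listed. Columns of per-sample values left unused numbered 0.

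Members and lists were chosen with earlier results of these data known. All passing members are named, with the deepest exon of every other member gene. Further exons were named after their values were seen, for their known role or for a level and reads that part ways. Genes of the further lists are named only where an exon passed.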

Additional observations from a re-analysis of the deposited data

Results flagged for a closer look

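The difference between the knockdown pools passed its own test for 11 member exons, given here as siSNRPA1 minus siSNRPB. The genes with higher inclusion in siSNRPA1 were ARFGAP2 with 0.52, ARHGEF11 with 0.49, CLSTN1 with 0.31, RALGPS2 with 0.27 and PPFIBP1 with 0.23. The integrin gene ITGA6 was higher by 0.20 at its 129-nt exon, by 0.14 at its 130-nt exon and by 0.10 at its 174-nt exon. The 129-nt and 174-nt exons are forms of the same exon and share exclusion reads. Inclusion was lower in siSNRPA1 at the 57-nt ENAH exon, with -0.14, at the 129-nt PICALM exon, with -0.14, and at the 144-nt NUMB exon, with -0.12. In ARFGAP2 and ARHGEF11 the siSNRPB value rests on 24 informative reads.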

How the results depend on the processing

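The counts of passing members, 13 in siSNRPA1 against siCtrl, 10 in siSNRPB against siCtrl and 11 between the knockdown pools, moved most with the minimum difference and the number of reads. With a difference of at least 0.2 they were 5, 5 and 6, and with no minimum difference 20, 18 and 21. With read counts divided by 2 they were 4, 3 and 1. With a minimum of 50 informative reads they were 11, 6 and 6. In siSNRPA1 against siCtrl the exons of PICALM (24 nt) and RALGPS2 then had too few reads. In siSNRPB against siCtrl those of ARFGAP2, ARHGEF11, MAP3K7 and NF2 had too few. Between the knockdown pools those of ARFGAP2, ARHGEF11, ENAH, PICALM (129 nt) and RALGPS2 did. Under a minimum of 10 reads, read shares in place of levels, Bayes factors, reads thinned to the smallest pool, every annotated event and 1 exon per overlapping group, the counts were 9 to 15 and within 1.5 times, which does not mean the same exons. With read shares in place of levels 12 calls were lost: both of APLP2 (153 nt), CTTN and PPFIBP1, 4 over the 3 ITGA6 exons, and those of PICALM (76 nt) and TCF7L2 (102 nt). No passing call reversed under any alternative, but 5 differences that had not passed changed sign with read shares: NUMB (144 nt, siSNRPA1 minus siCtrl, -0.1321), ITGA6 (130 nt, siSNRPB minus siCtrl, -0.0329), NFYA (siSNRPB minus siCtrl, 0.0864), MAP3K7 (81 nt, siSNRPA1 minus siSNRPB, 0.0246) and TCF7L2 (102 nt, siSNRPA1 minus siSNRPB, 0.0336). Level and reads also differ in sign for the 289-nt CTNND1 exon in siSNRPA1. With thinned reads 8 calls were lost or untestable: PICALM (24 nt and 76 nt), RALGPS2 (both), TCF7L2 (144 nt and 102 nt), NF2, and ARFGAP2 between the knockdown pools. No paired analysis was possible because each group is 1 pool, and for the same reason no replicate could be left out. Depth limits the siSNRPB pool most, with a median of 57 informative reads per member.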
